A study of Mus musculus with 24 samples.

Results

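Transcripts of Sele and Icam1, the genes of E-selectin and of intercellular adhesion molecule 1, were followed in the heart of mice after a sham operation. Each gene was represented by 1 transcript, found by its symbol in the study's list of changed transcripts (uc007dhx.1 for Sele and uc009ojx.1 for Icam1), so that 2 of the 63758 transcripts listed are described. Left ventricular myocardium of 24 male C57BL/6 mice (C57BL/6J in the study's methods) aged 8 to 12 weeks was sequenced, with 8 mice at each of 0 min, 45 min and 24 h and 1 sample per mouse. In all 3 groups the mice were anaesthetized with pentobarbital and buprenorphine, ventilated and thoracotomized, and a suture was passed around the left anterior descending coronary artery without being tied. The suture was withdrawn immediately in the 0 min group and after 45 min in the 45 min group, and in the 24 h group the chest was closed after 45 min and the mice were left to recover. The 0 min hearts had therefore already been through anaesthesia and surgery, and no unoperated heart is included in the comparisons. All fold changes below are relative to those operated hearts.

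Leukocytes leave the blood by first rolling on and then adhering to the endothelium. E-selectin is a lectin that activated endothelial cells synthesize after exposure to inflammatory cytokines, and it binds sialylated carbohydrates on rolling leukocytes. ICAM-1 is an immunoglobulin superfamily protein that binds leukocyte integrins in firm adhesion, and it is carried by resting endothelium and by other cells, leukocytes included, as well as by activated endothelium. Both genes are textbook targets of NF-kB, the transcription factor that TNF, IL-1 and Toll-like receptors activate. The myocardium is a mixture of cell types, so fewer cells of a type and less RNA per cell cannot be told apart in these data.

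Sele lies on chromosome 1 (GRCm38, 164048234 to 164057677, plus strand, 14 exons), 57587 bases from Selp, the gene of P-selectin. Icam1 lies on chromosome 9 (21015985 to 21028817, plus strand, 7 exons). No annotated gene overlaps Sele. The 3′ end of Icam1 is overlapped by the antisense gene Gm47079 (21028307 to 21032357, minus strand). The libraries were directional, but the strand setting of the counting is not given in the sources used here, so a share of Gm47079 reads in the Icam1 count is possible.

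The 250 bases before the start site of each gene in RefSeq (GRCm38.p6) are shown because both genes rose within 45 min and because these windows can be compared letter by letter. They correspond to chr1:164047984-164048233 for Sele and chr9:21015690-21015939 for Icam1, both on the plus strand. Capitals mark matches to the motifs described next.
Sele: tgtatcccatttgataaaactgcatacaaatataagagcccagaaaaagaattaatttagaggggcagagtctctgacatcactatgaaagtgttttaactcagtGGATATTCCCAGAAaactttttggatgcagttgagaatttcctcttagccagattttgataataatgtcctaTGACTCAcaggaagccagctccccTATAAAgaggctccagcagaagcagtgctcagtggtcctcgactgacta
Icam1: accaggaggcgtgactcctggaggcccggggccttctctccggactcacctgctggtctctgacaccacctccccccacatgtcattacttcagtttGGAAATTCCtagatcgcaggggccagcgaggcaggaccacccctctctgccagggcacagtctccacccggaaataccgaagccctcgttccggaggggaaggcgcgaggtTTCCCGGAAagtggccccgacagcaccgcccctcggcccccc
The Sele window had a GC content of 40.4% and the Icam1 window one of 65.2%. Each window held 1 site of the NF-kB-like form GGANNTTCC, a form chosen after the sequences had been seen. It lay at -145 to -137 in Sele (GGATATTCC) and at -153 to -145 in Icam1 (GGAAATTCC, which reads the same on both strands), and 3.59% of the 32851 RefSeq promoter windows searched held it on either strand. The standard NF-kB consensus, held by 7.25% of windows, had no match in either. Each window also held 1 STAT-type site, TTCNNNGAA, as did 7.02% of windows. In Sele this site (-140 to -132) overlapped the NF-kB-like site, whereas in Icam1 it lay apart at -42 to -34. A match to the AP-1 form TGANTCA (-73 to -67, held by 6.75% of windows) and a TATAAA box (-49 to -44, held by 12.4%) were found in the Sele window and not in the Icam1 window. These are matches of letters and not measurements of binding.

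Libraries held 9887957 to 14091629 counts, and 12972 to 18865 transcripts per sample had at least 1 count. In 5 libraries fewer than 15000 transcripts were detected. These were replicates 5 and 7 at 0 min and replicates 6, 7 and 8 at 45 min. The values of Sele and Icam1, with some other calls that change, are also given without them. A single transcript, uc012ath.2, took 0.997% to 35.2% of the counts of a library. Cardiomyocyte transcripts on the marker list (Actc1, Actn2, Mybpc3 and Tpm1) summed to 5474 to 27487 CPM in these heart samples. Levels are in CPM, the count scaled to the library total and by TMM factors, and differences are log2 fold changes with standard errors from edgeR's quasi-likelihood test. A transcript was called changed at a Benjamini-Hochberg adjusted p under 0.05 over the 8940 transcripts tested.

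Sele was scarce at 0 min, was higher in every 45 min heart than in any 0 min heart and had a mean between these levels at 24 h. Its raw counts were 5 to 26 per library at 0 min (median 17.5), 29 to 131 at 45 min (median 67.5) and 13 to 123 at 24 h (median 44). At 0 min the lowest, median and highest levels were 0.488, 1.54 and 2.26 CPM. At 45 min they were 3.30, 5.50 and 13.65 CPM. All 8 hearts at 45 min were thus above all 8 at 0 min. At 24 h the corresponding levels were 1.05, 3.08 and 8.81 CPM. Here 7 of 8 hearts were above the highest 0 min heart, replicate 8 was not, and 4 of 8 were below the lowest 45 min heart.

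**Figure D1:**
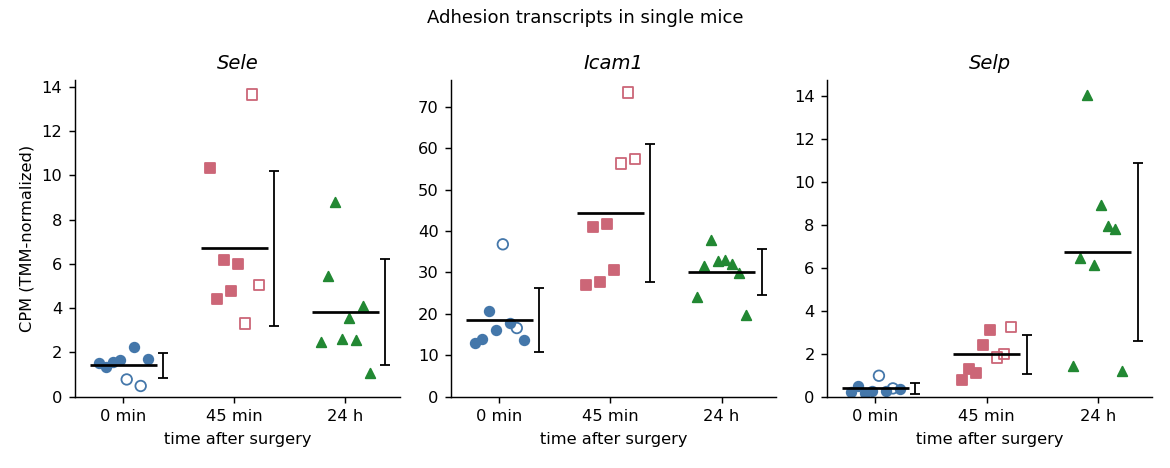
Level of Sele, Icam1 and Selp in each of the 24 mice, in TMM-normalized CPM (y axis, linear, from 0 and scaled separately for each gene), by time point (x axis). Each point is 1 mouse, open points are the 5 libraries with fewer than 15000 transcripts detected, horizontal lines are means and bars are SD (n = 8). Sele and Icam1 are highest at 45 min, with means of 6.70 and 44.4 CPM, whereas Selp is highest at 24 h, with a mean of 6.74 CPM.

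In the 3 groups in order of time, mean Sele was 1.41 ± 0.554, 6.70 ± 3.49 and 3.83 ± 2.40 CPM (SD, n = 8 each). At 45 min the log2 fold change against 0 min was 2.23 ± 0.37 (SE), a 4.69-fold higher fitted level, with an adjusted p of 0.00101 in edgeR. Of all transcripts tested, 0.481% were called higher and 0.246% lower in this comparison, and Sele had the 13th largest log2 fold change. At 24 h the log2 fold change against 0 min was 1.43 ± 0.36 (adjusted p = 0.0129, edgeR), a 2.69-fold higher level, in a comparison that called 4.44% of transcripts higher and 3.24% lower. Without replicate 3 at 24 h, the heart with the most Sele of its group, it was 1.09 and missed the threshold (adjusted p = 0.0564). From 45 min to 24 h the log2 difference was -0.80 (95% interval -1.49 to -0.11). It did not pass (adjusted p = 0.137, edgeR), where 4.59% of transcripts were called higher and 4.51% lower. Without the same replicate 3 it was -1.15 with an adjusted p of 0.0291, so this heart decided both calls. In the test of any change over time, which called 8.91% of transcripts, Sele had an adjusted p of 0.000493.

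Icam1 followed the same order of time points at a higher level and with smaller fold changes. Its raw counts were 143 to 376 at 0 min, 273 to 704 at 45 min and 245 to 528 at 24 h. The lowest, median and highest levels at 0 min were 12.9, 16.4 and 36.8 CPM. The highest value belonged to replicate 5, and the other 7 hearts were at or below 20.6 CPM. At 45 min the levels were 27.1, 41.4 and 73.4 CPM, with all 8 hearts above the 0 min median and 5 above replicate 5. At 24 h they were 19.8, 31.7 and 37.8 CPM, again with all 8 hearts above the 0 min median, and with 1 above replicate 5. No 24 h heart exceeded the median of the 45 min hearts.

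Mean Icam1 was 18.6 ± 7.77, 44.4 ± 16.6 and 30.1 ± 5.64 CPM in the same order (SD, n = 8 each). At 45 min Icam1 had risen by 1.25 ± 0.22 on the log2 scale (adjusted p = 0.00301, edgeR), a 2.39-fold higher level and the 51st largest of all transcripts tested. At 24 h it was 0.70 ± 0.22, or 1.62-fold, and narrowly missed the threshold (adjusted p = 0.0526, edgeR). It passed without replicate 5 at 0 min (0.91, adjusted p = 0.00531) and without the 5 libraries of low detection (0.92, adjusted p = 0.00067). The log2 difference from 45 min to 24 h was -0.56 (95% interval -1.01 to -0.10) and did not pass (adjusted p = 0.114). Without the 5 libraries it was -0.15 (adjusted p = 0.664). The adjusted p for any change over time was 0.00129.

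Per kilobase of transcript, Icam1 was the more abundant of the pair at every time point. Mean Icam1 was 15.1 times mean Sele in CPM per kb at 0 min, 7.61 times at 45 min and 9.04 times at 24 h. Whether Sele changed more than Icam1 was tested by comparing the log2 ratio of Sele to Icam1 in single mice between time points. Each level was the CPM with 0.5 added, which compresses the low Sele levels of 0 min. There were 9.82 Sele counts per 100 Icam1 counts at 0 min, 15.03 at 45 min and 10.5 at 24 h (medians of 8 mice). The log2 ratio was higher by 0.62 at 45 min than at 0 min in an exact permutation test over 12870 arrangements (two-sided p = 0.143, adjusted over 3 comparisons 0.408). It was higher by 0.32 at 24 h than at 0 min (exact permutation p = 0.379, adjusted 0.408) and differed by -0.30 between 24 h and 45 min (exact permutation p = 0.408, adjusted 0.408). The value at 45 min depended on the amount added, being 0.89 with 0.1 added (adjusted p = 0.200, exact permutation test) and 0.12 with 2 added (adjusted p = 0.984, exact permutation test). The larger fold of Sele in the fit was not a detectable difference between the genes in any of these tests, which does not show that they changed alike.

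The spread between mice was wider than counting error for both genes. For Sele the coefficient of variation at the 3 time points was 39.3%, 52.1% and 62.8%, against 25.1%, 11.8% and 13.9% from counting alone. For Icam1 it was 41.8%, 37.5% and 18.7%, against 7.01%, 4.61% and 4.97%. The 0 min value of Sele was thus the one most limited by depth, and Icam1 at 24 h was the most uniform group of hearts.

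No relation between the levels of Sele and Icam1 in single hearts was detectable at 0 min or at 45 min. Within 0 min the correlation of their log2 levels over 8 mice was r = -0.378 (exact permutation p = 0.335, adjusted over 4 relations 0.669, Spearman's rho -0.167), and within 45 min it was r = 0.00458 (exact permutation p = 0.991, adjusted 0.991, rho -0.167). Within 24 h it was r = 0.817 (exact permutation p = 0.0126, adjusted 0.0506, rho 0.643 with an exact p of 0.0962). The 24 h relation rested on the highest and the lowest heart, since without replicates 3 and 8 it was 0.289. Without the 2 hearts farthest from the Sele median, r was 0.374 at 0 min (replicates 7 and 5) and -0.774 at 45 min (replicates 7 and 1). Over all 24 mice with time point means removed, r was 0.118 (permutation p = 0.578, adjusted 0.771, rho 0.0277). Single hearts at 45 min illustrate this. Replicate 1 had the second highest Sele of all 24 mice (10.3 CPM) and the lowest Icam1 of its group (27.1 CPM), whereas replicate 6 had the lowest Sele of its group (3.30 CPM) with 56.2 CPM of Icam1. Replicate 7 was the highest of all 24 for both, with 13.65 and 73.4 CPM.

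**Figure D2:**
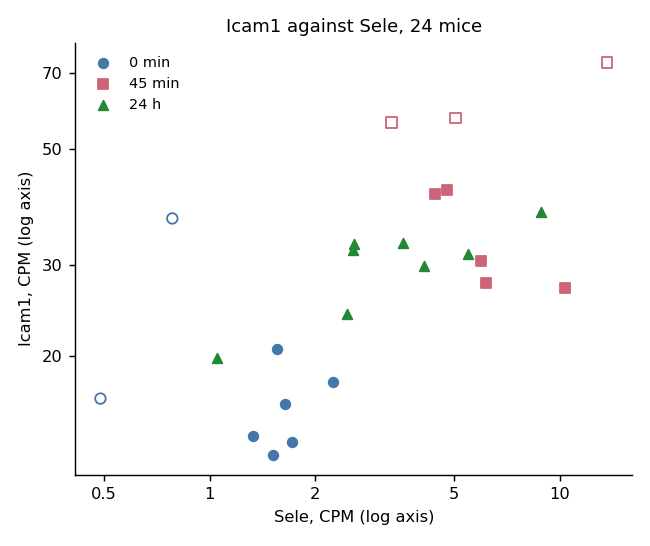
Level of Icam1 (y axis, CPM, log scale) against Sele (x axis, CPM, log scale) in 24 mice, 1 point per mouse, with symbols for the time points and open symbols for the 5 libraries with fewer than 15000 transcripts detected. All 45 min points lie to the right of all 0 min points on the Sele axis, but within 0 min and within 45 min the points do not line up (r = -0.378 and 0.00458), and at 24 h they do (r = 0.817), with replicates 3 and 8 at the ends.

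At 45 min the hearts with most Icam1 were those with fewest transcripts detected. The 3 libraries with fewer than 15000 transcripts at this time had 56.2 to 73.4 CPM of Icam1 and the other 5 had 27.1 to 41.7 CPM, with no overlap. Sele was 3.30 to 13.65 CPM in these 3 and 4.41 to 10.3 CPM in the other 5, so that the ranges overlapped. Within 45 min the correlation of log2 Icam1 with the number of transcripts detected was -0.834 (exact permutation p = 0.0223, adjusted over 36 relations within time points 0.134, rho -0.762), and -0.857 without replicates 8 and 6. It was -0.499 within 0 min (exact permutation p = 0.218, adjusted 0.655) and 0.0462 within 24 h (exact permutation p = 0.908, adjusted 0.939). Over all 24 mice, with time point means removed, it was -0.596 (permutation p = 0.00829, adjusted over 12 relations 0.0497, rho -0.577), and -0.517 without the 2 samples farthest from the median. It rested on the 5 libraries, since over the other 19 mice it was -0.0474 (permutation p = 0.853). The corresponding value for Sele within 45 min was 0.0896 (exact permutation p = 0.848). The part of library detection in the Icam1 level was not tested. Without the 5 libraries, Icam1 still rose at 45 min, by 1.07 on the log2 scale (adjusted p = 0.00379, edgeR), and Sele rose by 1.90 (adjusted p = 0.0236).

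Icam1 also moved with the summed level of 4 neutrophil transcripts (Cxcr2, Mmp8, Mmp9 and Cd177), 5 other symbols of the list not being analysed here. This sum ranged over 1.36 to 7.14 CPM at 0 min, 1.59 to 19.3 CPM at 45 min and 7.38 to 51.7 CPM at 24 h, and each of the 4 transcripts was called higher at 24 h and none at 45 min. The 4 come from the study's changed transcripts, of which 33.3% were called higher at 24 h and 3.83% at 45 min. Mmp9 had the highest mean of the 4, with 2.43, 4.92 and 17.3 CPM in order of time, so it weighed most in the sum. With time point means removed, the correlation of log2 Icam1 with the log2 sum was 0.765 over 24 mice (permutation p = 1e-05, the smallest the permutations can give, adjusted over 12 relations 0.00012, rho 0.731). It was 0.682 without the 2 samples farthest from the median of the sum and 0.719 over the 19 mice left without the 5 libraries of low detection (permutation p = 0.00105). Within time points it was 0.932 at 0 min (exact permutation p = 0.000595, adjusted over 36 relations 0.0107), 0.692 at 45 min (exact permutation p = 0.0504, adjusted 0.259) and 0.866 at 24 h (exact permutation p = 0.00818, adjusted 0.0737). Without the 2 farthest mice of each time point it was 0.848, 0.114 and 0.522, so the values at 45 min and 24 h rested on those mice. These relations were chosen after seeing the data, and the part of neutrophil RNA in the Icam1 level was not tested.

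Sele at 24 h moved with the transcripts of monocytes and macrophages. Its log2 level had a correlation of 0.939 with the log2 sum of 9 monocyte and macrophage transcripts over the 8 mice (exact permutation p = 2.48e-05, adjusted over 36 relations 0.000893). The mice had the same order in both (rho 1), from replicate 8 with 1.05 CPM of Sele and a marker sum of 97.4 CPM to replicate 3 with 8.81 and 285 CPM. Without these 2 mice r was 0.970. Mrc1 had the highest mean of the 9, with 38.9, 38.1 and 75.9 CPM in order of time, so it weighed most. Over all 24 mice, with time point means removed, r was 0.562 (permutation p = 0.0137, adjusted over 12 relations 0.0547, rho 0.457). It was 0.302 without the 2 mice farthest from the median of the sum, and 0.752 over 19 mice without the 5 libraries of low detection. The correlation was -0.000361 within 0 min (exact permutation p = 0.999, adjusted 0.999) and 0.0449 within 45 min (exact permutation p = 0.913, adjusted 0.939), where the marker sums were 53.1 to 78.3 CPM and 52.8 to 104 CPM. Sele at 24 h also had a correlation of 0.877 with the neutrophil sum (exact permutation p = 0.00392, adjusted 0.047). Icam1 at 24 h had a correlation of 0.749 with the monocyte and macrophage sum (exact permutation p = 0.0212, adjusted 0.134). Without replicates 8 and 3 that value was 0.412. Correlations of Sele with the summed endothelial transcripts were -0.149 at 0 min, -0.313 at 45 min and 0.521 at 24 h (exact permutation p = 0.74, 0.447 and 0.168). These relations too were chosen after seeing the data. The difference between time points in these correlations and the part of the marker transcripts in the Sele level were not tested.

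**Figure D3:**
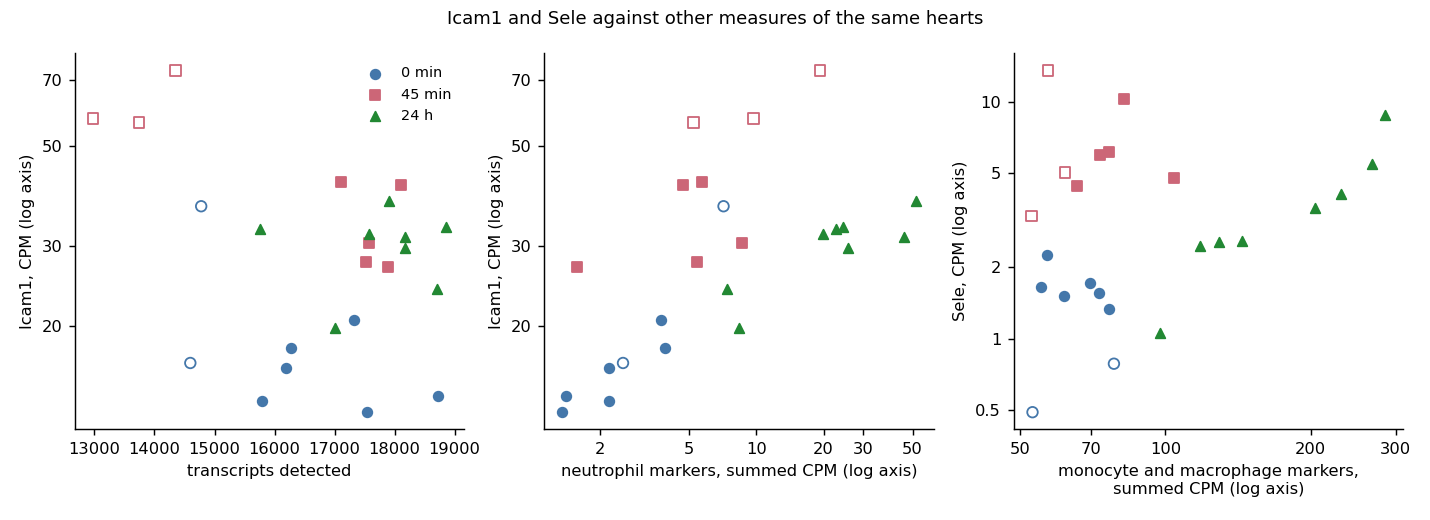
Left, Icam1 (y axis, CPM, log scale) against the number of transcripts detected (x axis). Middle, Icam1 against the summed CPM of 4 neutrophil transcripts (log scale). Right, Sele (CPM, log scale) against the summed CPM of 9 monocyte and macrophage transcripts (log scale). Each point is 1 of 24 mice, coded by time point, and open points are the 5 libraries with fewer than 15000 transcripts detected. The 3 open squares at 45 min are the highest Icam1 values of the study, and the 8 mice at 24 h rise together in the right panel (r = 0.939).

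Of 13 genes listed as endothelial adhesion molecules, 6 were matched to a transcript and 5 were tested. All of them belong to the 1209 transcripts that the study called changed over time on these same samples, so the counts are not independent evidence of a change. Symbols were available only for those 1209, so 7 listed genes, Vcam1 and Icam2 among them, were not analysed here. Among the 1097 such transcripts tested, 3.83% were called higher at 45 min and 33.3% at 24 h. Of the 5 adhesion transcripts, 3 were called higher at 45 min (Sele, Icam1 and Selp) and 3 at 24 h (Sele, Selp and Alcam), and none was called lower. The median log2 fold change of the 5 was 1.25 at 45 min and 1.32 at 24 h, against 0.011 and 0.0033 over all transcripts tested and 0.07 and 0.27 over the 1097. Ackr1, a chemokine receptor of venules, was too low to be tested.

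Selp encodes P-selectin, which endothelial cells and platelets store in granules and which captures rolling leukocytes as E-selectin does. It had 2 to 10 counts per library at 0 min, 8 to 38 at 45 min and 15 to 196 at 24 h. Its lowest, median and highest levels were 0.183, 0.329 and 0.978 CPM at 0 min, 0.794, 1.90 and 3.24 CPM at 45 min and 1.21, 7.11 and 14.0 CPM at 24 h. All 8 hearts at 24 h were above all at 0 min, and 6 were above the highest at 45 min. The log2 fold change was 2.27 ± 0.48 at 45 min (adjusted p = 0.0138, edgeR) and 4.05 ± 0.46 at 24 h (adjusted p = 1.81e-06), and 1.78 from 45 min to 24 h (adjusted p = 0.00397). Without the 5 libraries of low detection the 45 min value was 2.46 and missed the threshold (adjusted p = 0.134). The antisense gene Gm16587 and the lincRNA gene Gm16548, both on the minus strand, overlap Selp. With the strand setting of the counting not given, a share of their reads in the Selp count is possible.

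From 45 min to 24 h the course of Selp differed from that of both Sele and Icam1. In ratios within each mouse, a comparison chosen after seeing the data, Selp rose relative to Sele by 2.14 on the log2 scale from 45 min to 24 h (exact permutation test, p adjusted over 6 ratios 0.000932) and relative to Icam1 by 1.84 (adjusted p = 0.00163, exact permutation test). With 0.1 or 2 added to the CPM in place of 0.5, these differences were 2.38 or 1.59 for Sele and 2.00 or 1.47 for Icam1, and all 4 passed. From 0 min to 45 min the ratio of Selp to Icam1 differed by 0.18 and changed direction with the amount added (0.79 with 0.1 and -0.46 with 2). Selp at 0 min was below 0.5 CPM in 7 of 8 hearts. Whether Selp and the other genes rose alike by 45 min is therefore not read from these ratios. Without the 5 libraries of low detection the 24 h against 45 min differences were 2.28 and 1.66 (adjusted p = 0.00155 and 0.0117, exact permutation test). Alcam, an immunoglobulin superfamily adhesion molecule, differed from 0 min by 0.07 on the log2 scale at 45 min (adjusted p = 0.98, edgeR) and was higher at 24 h (1.32 ± 0.29, adjusted p = 0.00393). Jam2, a molecule of endothelial junctions, had log2 fold changes of -0.02 and -0.33 (adjusted p = 0.988 and 0.0848, edgeR). It was called lower at 24 h without the 5 libraries (-0.35, adjusted p = 0.0182).

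**Figure D4:**
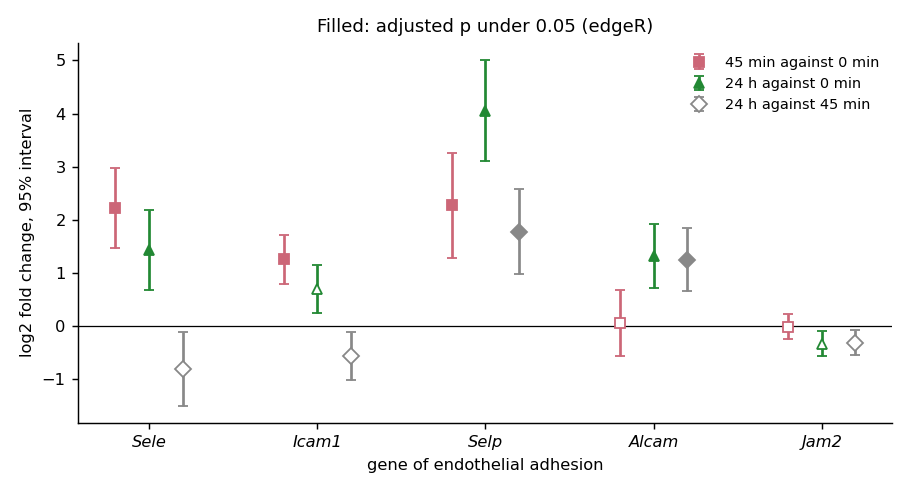
Log2 fold change (y axis) of the 5 tested adhesion transcripts (x axis) in the 3 comparisons of time points, with 95% intervals from edgeR's quasi-likelihood fit to 24 mice and filled symbols for an adjusted p under 0.05. Sele and Icam1 lie below 0 from 45 min to 24 h (-0.80 and -0.56, neither called), whereas Selp and Alcam lie above 0 (1.78 and 1.25, both called).

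The pathway known to induce both genes was represented by a list for TNF, IL-1 and Toll-like receptor signalling to NF-kB, with 8 tested transcripts. One of these, Il17ra, is a receptor chain for a different cytokine, IL-17. Another 7 symbols of the list, Tnf and Il1b among them, were not analysed here. The 8 come from the study's changed transcripts (3.83% called higher at 45 min and 33.3% at 24 h). At 45 min only Nfkbia was called higher (0.95 ± 0.18, adjusted p = 0.00382), the gene of the inhibitor IkB alpha that NF-kB itself induces, and none was called lower. The call was lost without the 5 libraries of low detection (0.83, adjusted p = 0.0879). At 24 h Nfkbia had a log2 fold change of -0.11 (adjusted p = 0.797), and 4 others were called higher, with Il17ra the largest (1.79 ± 0.26, adjusted p = 3.46e-05). Without the 5 libraries 6 were called higher at 24 h, Irak4 (0.55, adjusted p = 0.0487, edgeR) and Ticam2 (1.33, adjusted p = 0.0103) included. The median of the 8 was 0.02 at 45 min and 0.74 at 24 h. Irak4, a kinase below the IL-1 receptor, had the lowest value at 45 min (-0.31, adjusted p = 0.952).

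Of 10 other NF-kB target genes tested, 4 (Cxcl1, Ptx3, Gadd45b and Ccl2) were called higher at 45 min and 8 at 24 h, none was called lower, and the medians were 1.57 and 1.88. These 10 too come from the study's changed transcripts, of which 3.83% were called higher at 45 min and 33.3% at 24 h. Cxcl1, a neutrophil chemokine, had the largest value at 45 min (3.75 ± 0.33, adjusted p = 1.84e-07), and it fell by 1.71 on the log2 scale from 45 min to 24 h (adjusted p = 0.000401). Ccl2, a monocyte chemokine, was higher at 24 h (3.71 ± 0.48, adjusted p = 9.01e-06) than at 45 min (2.26 ± 0.47, adjusted p = 0.0118). Sod2, the mitochondrial superoxide dismutase, had the lowest values of the list, -0.07 at 45 min and -0.45 at 24 h (adjusted p = 0.958 and 0.0546). Without the 5 libraries Ccl2 was no longer called at 45 min (1.95, adjusted p = 0.236), and Sod2 was called lower at 24 h (-0.50, adjusted p = 0.0171).

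The IL-6 family and STAT3 list had 6 tested transcripts, of which Socs3 alone was called at 45 min (3.62 ± 0.45, adjusted p = 3.08e-05, edgeR). Of its 11 symbols, 4 (Il6 among them) are not in the study's table of changed transcripts, the only source of symbols, and were not analysed here. The 6 come from the study's changed transcripts (3.83% called higher at 45 min and 33.3% at 24 h). Socs3 encodes a feedback inhibitor of cytokine receptors and was called higher at 24 h also (2.34 ± 0.43, adjusted p = 0.000598). Cebpb, a transcription factor of the acute phase response, had the lowest value at 24 h (-0.09, adjusted p = 0.909). From 45 min to 24 h, 31.3% of the study's changed transcripts were called lower. Of the 6 here, 3 were called lower, which were Socs3 (-1.28), Cebpb (-0.94) and Cebpd (-1.50). All 3 calls were lost without the 5 libraries of low detection, with values of -0.38, -0.47 and -0.31 (adjusted p = 0.610, 0.282 and 0.658, edgeR). The list's medians were 1.05 at 45 min and 0.71 at 24 h.

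The tested leukocyte counterparts of these adhesion molecules rose at 24 h. Of the 16 genes listed, 7 were matched and tested and 9 were not analysed here, and the 7 come from the study's changed transcripts, of which 33.3% were called higher at 24 h. Of these 7, which include integrin chains and signalling proteins of adhering leukocytes, none was called at 45 min and all 7 were called higher at 24 h, with medians of 0.47 and 1.61. Itgax, the CD11c integrin chain that can bind ICAM-1, had log2 fold changes of 0.08 at 45 min and 2.49 ± 0.41 at 24 h (adjusted p = 0.984 and 0.000178, edgeR). Fgr, a kinase of integrin signalling in myeloid cells, had values of 0.89 and 3.29 ± 0.54 (adjusted p = 0.952 and 0.000179), and Itgb7, an integrin chain of lymphocytes, values of -0.08 and 1.39 ± 0.34 (adjusted p = 0.98 and 0.00992). The summed level of the 7 was 9.28 to 37.4 CPM at 0 min, 13.2 to 32.2 CPM at 45 min and 16.3 to 109 CPM at 24 h. Of the 9 monocyte and macrophage transcripts tested, 8 were called higher at 24 h and none at 45 min. Without the 5 libraries of low detection all 9 were called higher at 24 h, Vsig4 (1.28, adjusted p = 0.0159, edgeR) included. These 9 also come from the study's changed transcripts, and 2 of the 11 listed symbols were not analysed here.

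**Figure D5:**
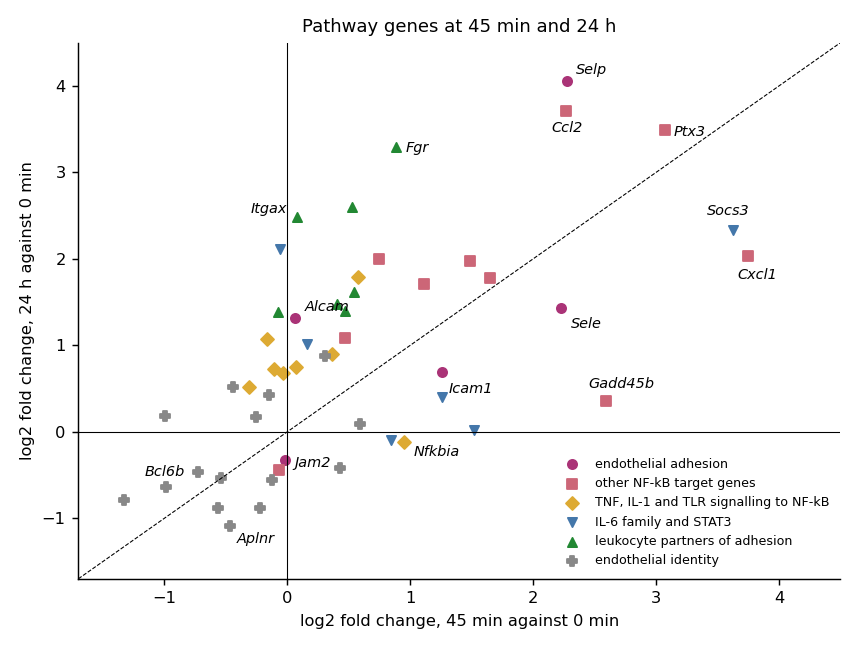
Log2 fold change at 24 h (y axis) against that at 45 min (x axis), both relative to 0 min, for the tested transcripts of 6 gene lists, 1 point per transcript, with a dashed line where both are equal. The 2 axes share the 0 min samples. Sele (2.23 and 1.43) and Icam1 (1.25 and 0.70) lie below the line with Cxcl1, Socs3, Gadd45b and Nfkbia, and the leukocyte partners lie above it.

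Of 15 transcripts tested that mark endothelium, none was called higher and 3 were called lower at 45 min, and 2 were called higher and 5 lower at 24 h, with medians of -0.44 and -0.47. The shares called lower among the 1097 changed transcripts of the study were 2.01% at 45 min and 23% at 24 h. The shares called higher were 3.83% and 33.3%. The 15 come from that changed set, and 8 of the 24 listed symbols, Pecam1 and Cdh5 among them, were not analysed here. The summed level of the 15 was 733 to 891 CPM at 0 min and 622 to 795 CPM at 45 min. At 24 h it was 496 to 648 CPM, so that the 24 h hearts were all below the 0 min hearts. Plxnd1 had the highest mean of the 15, with 371, 317 and 201 CPM in order of time, so it weighed most in the sum. The sum thus does not stand for all endothelial RNA. S1pr1, a receptor for sphingosine phosphate, had the highest log2 fold change at 45 min (0.59, adjusted p = 0.141, edgeR), and Esm1, a secreted proteoglycan, the lowest (-1.33, adjusted p = 0.0642). At 24 h Sema3g, a semaphorin of arterial endothelium, was the highest (0.87 ± 0.17, adjusted p = 0.00108) and Aplnr, the apelin receptor, the lowest (-1.09 ± 0.18, adjusted p = 0.000217). Without the 5 libraries of low detection 1 of the 15 was called lower at 45 min. Of 3 transcripts of endothelial quiescence and anticoagulation, none was called at 45 min. These were Klf2, Klf4 and Thbd, with log2 fold changes of -0.89, -0.80 and 0.26 at 45 min (adjusted p = 0.141, 0.0995 and 0.862, edgeR). At 24 h Thbd, the gene of thrombomodulin, was called higher (0.62 ± 0.12, adjusted p = 0.00169). These 3 also come from the changed set, of which 33.3% were called higher at 24 h.

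The transcripts whose levels were most like those of each gene were named by Pearson's r over the 24 mice, as a description. With time point means kept, Sele was nearest to Cxcl1 (0.858), Rnd1 (0.834), Ptgs2 (0.803), Socs3 (0.782) and Ptx3 (0.754). Icam1 was nearest to Sema7a (0.876), Socs3 (0.842), Cxcl1 (0.834), Litaf (0.833) and Rnd1 (0.819). Cxcl1, Rnd1 and Socs3 were thus near to both. Of the 8939 other transcripts, Icam1 was the 19th nearest to Sele and Sele the 116th nearest to Icam1 (r = 0.654). With time point means removed, the neighbours no longer included a shared gene. Sele was then nearest to uc007ner.2 (0.743), Rab32 (0.734), Ubash3b (0.731) and Ptgs2 (0.724), and Icam1 ranked 2628th. The 5 nearest to Icam1 had no symbol in the study's tables and r of 0.857 to 0.875, and Sele ranked 3627th.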

How the data were processed

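Polyadenylated RNA of 24 samples was sequenced from directional libraries. The authors trimmed reads with cutadapt 1.9.1, mapped them to mm10 with TopHat2 2.1.0 and Bowtie2 2.2.9 and deposited HTSeq 0.6.0 read counts per UCSC transcript, without normalization. The counting mode and strand option are not given in the sources used here. Surgeon and library pool were not used here. A blank row was left out (1 row).

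Counts were fitted in R 4.3.3 with edgeR 4.0.16 (filterByExpr minimum of 10 counts and 15 in total, TMM factors, quasi-likelihood test, time point as the only factor, all 24 samples), with Benjamini-Hochberg adjustment over all 8940 transcripts tested and a threshold of 0.05. The fit was tested on simulated data. Levels are CPM, with 0.5 added before taking log2. Ratios and correlations were compared by two-sided exact permutation tests, and over 24 mice by 100000 permutations within time points. Alternatives used limma 3.58.1, DESeq2 1.42.0, sva 3.50.0, other scaling and filters, a replicate block and fits without each sample. Mice were separate animals. In 84 pairs of samples of a time point the spread was at least 8.64 times that of counting alone. Intervals cover 95%.

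Both genes, the gene lists and the tests were chosen with earlier results of these data known. Symbols came from the study's table of 1209 changed transcripts, and no fold change or p-value of the authors was used. Named genes were all matched adhesion genes, the extremes of each other list at 45 min and 24 h, and the 5 transcripts most like each gene (some items under this rule are not reported here), and other genes named were chosen after their values were seen. Promoters came from RefSeq.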

Additional observations from a re-analysis of the deposited data

Results flagged for a closer look

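Replicate 5 at 0 min stood apart from the other 7 hearts of its group for Icam1, with 36.78 CPM against 12.9 to 20.6 CPM, and for Selp, with 0.9783 CPM against 0.183 to 0.499 CPM. Each gap exceeded Dixon's 95% limit for 8 samples, which chance passes in about 1 of 20 groups, and 12 groups were tested. The same heart had 0.783 CPM of Sele, the second lowest of all 24 mice, and 14778 transcripts detected. It had the highest sum of its group for the leukocyte partners of adhesion (37.4 CPM, others 9.28 to 14.9 CPM), the neutrophil transcripts (7.14 CPM, others 1.36 to 3.90 CPM), the monocyte and macrophage transcripts (78.3 CPM, others 53.1 to 76.3 CPM) and the IL-6 family list (157 CPM, others 50.9 to 104 CPM). It was also the highest for the lists of NF-kB signalling (265 CPM, others 169 to 221 CPM), endothelial quiescence (343 CPM, others 168 to 286 CPM) and cardiomyocytes (22227 CPM, others 14587 to 20659 CPM), and the lowest for the other NF-kB target genes (355.9 CPM, others 407 to 498 CPM). The part of these in its Icam1 level was not tested.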

How the results depend on the processing

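The rise of Sele and of Icam1 at 45 min and the change of each over time passed under every alternative run, including the fits without each sample, and the falls from 45 min to 24 h of both missed the threshold in every alternative other than 1 fit without a single sample. The 24 h rise of Sele was 1.29 with limma-voom (adjusted p = 0.0526), which missed the threshold. The 24 h rise of Icam1 missed it in the reported fit and passed in 10 of 13 alternatives. It was 0.70 with DESeq2, 0.76 with limma-voom, 0.74 with a minimum of 50 counts, 0.71 with upper quartile factors, 0.71 without transcripts over 5% of any sample, 0.71 after thinning, 0.69 in the 16 samples compared, 0.92 with 1 surrogate variable, 0.98 with detected transcripts as a covariate and 0.92 without the 5 libraries of low detection (an alternative chosen after seeing the data). The cause was not tested.

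Replicate numbers were not treated as pairs of samples across time points. The correlation of deviations exceeded 0.1 in 12 of 24 same-numbered pairs (median 0.111, range -0.4855 to 0.5575), and 6 of 24 samples correlated best with their own number. No such values were worked out for samples of different numbers, so these cannot decide whether the numbers pair the samples. With the replicate number as a block, the 24 h rise of Sele was 1.28 and missed the threshold (adjusted p = 0.0533). The counts of transcripts called under the block were within 1.5 times those reported.

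The number of transcripts called between 45 min and 0 min (65) was 109 with DESeq2, 129 with 1 surrogate variable, 102 with the covariate and 30 without the 5 libraries. For 24 h against 0 min (687) it was 1546 with 1 surrogate variable and 1044 with the covariate, for 24 h against 45 min (813) it was 1379 with 1 surrogate variable, and over time (797) 1638. Leaving out single samples gave 524 (24 h replicate 2) to 1668 (24 h replicate 4) for 24 h against 45 min and 585 to 1291 over time (the same samples).

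Without single samples the 24 h rise of Sele ranged from 1.09 (without 24 h replicate 3, not called) to 1.54, that of Icam1 from 0.59 to 0.91 (without 0 min replicate 5, called), and the difference of Sele between 24 h and 45 min from -1.15 (without 24 h replicate 3, called) to -0.59. The correlation of Sele and Icam1 ranged from -0.661 to 0.027 within 0 min, from -0.789 to 0.285 within 45 min, from 0.622 to 0.879 within 24 h and from -0.0641 to 0.271 with time point means removed. Without the 2 samples farthest from the Sele median it was 0.374, -0.774 and, with time point means removed, -0.112. Within 45 min it was -0.167 as a rank correlation and -0.00472 with a pseudocount of 0.1, and within 24 h it passed with that pseudocount (r = 0.829, adjusted p = 0.0412). The ratio of Sele to Icam1 between 24 h and 0 min reversed without the 5 libraries (-0.070). The ratio of Sele to Icam1 at 45 min was 0.89 and 0.12 with pseudocounts of 0.1 and 2, and that of Selp to Icam1 reversed at 45 min with the latter (-0.46), alternatives for Selp chosen after seeing the data. Between Sele and Icam1, depth limits Sele at 0 min most (5 to 26 counts per library), and Selp has fewer counts still (2 to 10).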

Other observations

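Other cell type lists were called mainly at 24 h, as were the study's changed transcripts from which their members come. Of those transcripts, 3.83% were called higher at 45 min and 33.3% at 24 h, and 2.01% and 23% were called lower. All 4 tested mesothelial transcripts were called higher at 24 h and none at 45 min (edgeR), with Krt8, a keratin, at 3.87 ± 0.51 on the log2 scale, and their summed level was 1.196 to 7.18 CPM at 0 min and 5.47 to 46.4 CPM at 24 h. Of 2 platelet transcripts, Ppbp, a platelet chemokine, was called higher at 24 h (2.73 ± 0.53), and the sum was 8.18 to 74.6 CPM at 45 min and 10.7 to 141.9 CPM at 24 h. Of 3 fibroblast transcripts, Col3a1, a fibrillar collagen, was called higher at 24 h (0.75 ± 0.22). Of 4 cardiomyocyte transcripts, Actc1, the cardiac actin gene, fell by 1.38 on the log2 scale at 24 h. Mybpc3, a myosin binding protein gene, fell by 0.81 at 24 h. The Tpm1 transcript fell by 2.01 at 45 min and differed from 0 min by 0.17 at 24 h (adjusted p = 0.79, edgeR). It was a low transcript, with means of 8.85, 2.19 and 9.95 CPM in order of time. The part of these shifts in the levels of Sele and Icam1 was not tested.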
